A study of Mus musculus with 6 samples.

Results

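The genes described here are 3 ligands of the bone morphogenetic protein (BMP) family, Bmp2, Bmp4 and Bmp7, and the Smad genes of the BMP pathway, Smad1, Smad4, Smad5, Smad6, Smad7 and Smad9. They were taken by name from the RNA-seq table of the series, and all 9 were found, each on 1 of the 23235 rows (22969 distinct gene names). RNA had been sequenced from the mouse embryonic stem cell (ESC) line E14Tg2a at passages 37 to 40. Pluripotent ESCs in serum medium with Leukemia Inhibitory Factor (LIF) gave 3 samples. The other 3 samples were LIF-free monolayers of the same line after 48 h in 1 µM Retinoic Acid (RA), which the study names neuronal cells (NCs). No transgene, deletion or sort distinguishes the conditions, and each sample is RNA of a mixed culture from a pair of plates. Since the cultures lost LIF and received RA together, these changes cannot be told apart, and in bulk RNA neither can a larger number of expressing cells and more mRNA per cell.

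BMPs are secreted dimers that bring together type I and type II serine/threonine kinase receptors. The activated type I receptor phosphorylates the receptor Smads (SMAD1, SMAD5 and SMAD9), which join the common Smad, SMAD4, enter the nucleus and act on target genes such as those of the Id family. The inhibitory Smads, SMAD6 and SMAD7, block this relay at the receptor or at SMAD4, and both genes are themselves induced by the pathway. In mouse ESCs, BMP4 acts together with LIF to sustain self-renewal, and in the embryo BMP signals hold back neural fate in the ectoderm, which is why the secreted BMP antagonists are known as neural inducers.

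The table holds 1 level per gene and condition, in FPKM, a fragment count scaled to transcript length and to all mapped fragments, estimated jointly from the samples of that condition. No SD or n can therefore be given and no difference was tested against the spread between samples. A gene was counted as past the limit when its FPKM differed at least 2-fold between NCs and ESCs and its mean over both conditions was at least 1 FPKM. This mean was reached by 12782 genes. Of these, 11.1% were past the limit with the higher value in NCs and 9.94% with the lower value. If the FPKM of both conditions are scaled to the same total, every log2 ratio is raised by 0.29, and the share of genes past the limit that are higher in NCs goes from 52.8% to 70.8%.

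The depth of the single samples is unknown. Fragment numbers were estimated from steps in the lowest FPKM of genes with 1 annotated transcript, where 1 fragment in a transcript with 1 kb of usable length added 0.0119 or 0.0138 FPKM to the ESC value and 0.00715 or 0.0135 FPKM to the NC value. Both steps were picked as the most crowded of these lowest values. Of the lowest values, 62.4% in ESCs and 60.3% in NCs lay within 2% of either step and the others did not. Multiples of the steps were not checked, so the fragment numbers and the intervals made from them are approximate. Each value was turned into fragments with the shortest coding transcript long enough to be used, which gives the fewest fragments and the widest intervals. For Smad7 this transcript has 769 bases, against 4278 for its longest coding transcript. At the larger step, the lowest of the 18 values described here, Smad9 in ESCs, rested on about 76 fragments summed over the samples, and the value with the fewest fragments, Bmp2 in ESCs, on about 51. The 95% intervals given below (exact Clopper-Pearson, on the split of the fragments between the conditions) cover counting error only.

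The cells were checked against marker genes. All 8 pluripotency markers were past the limit and lower in NCs (Pou5f1, 832 against 37.1 FPKM), and all 6 markers of the RA response were higher (Rarb, 0.128 against 25.5 FPKM). Of the RA markers, Rarb, Cyp26a1, Hoxb1 and Stra6 reached the mean of 1 FPKM only through their NC values. They could not have been counted without a difference. Of 6 neural markers, the progenitor genes Pax6 and Sox1 were 17.9-fold and 12.3-fold higher in NCs. The neuronal genes Tubb3 and Map2 were 4.43-fold and 1.35-fold lower in NCs, the latter within the limit, and Ncam1 and Nes were 1.76-fold and 1.42-fold higher, also within it. The median log2 ratio of the 6 was 0.66. Of 5 endoderm markers, Gata6, Sox17 and Foxa2 were past the limit and higher in NCs (Gata6, 2.37 against 5.48 FPKM), and the summed level of all 5 was 7.16 FPKM in ESCs against 18.5 FPKM in NCs. Sox17 and Foxa2 likewise reached the mean of 1 FPKM only through their NC values. Afp, a marker of visceral endoderm and fetal liver, was under the filter (0.0161 and 0.0871 FPKM). None of 5 mesoderm markers reached a mean of 1 FPKM, and their sum was 3.24 FPKM in ESCs against 2.57 FPKM in NCs. Of 3 trophectoderm markers, 1 (Krt7) reached that mean and was within the limit, with sums of 4.77 and 7.03 FPKM. The part that cells with these markers have in the BMP values below was not tested. Rarb, Sox1, Map2, Ncam1, Nes, Sox17 and Afp were named after their values were seen.

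Of the 9 genes, 8 had the higher FPKM in NCs and 1, Smad7, the lower. Over the 12782 genes, 47.6% had the higher FPKM in NCs. The mean of 1 FPKM was reached by 8 of the 9 genes. Of these, 4 (Bmp2, Bmp7, Smad1 and Smad6) were past the 2-fold limit with the higher value in NCs and none with the lower value. Over all genes these shares were 11.1% and 9.94%. Bmp2 reached that mean only through its NC value, so it could not have been counted without a difference. Smad9 did not reach it. The median log2 ratio of NCs to ESCs was 1.12 over the 9 genes, Smad9 included, and -0.04 over the 12782 genes, which all reached that mean. Without Smad9 the median lies between the values of Bmp4 (0.82) and Smad1 (1.12). In ESCs the order of levels from the highest was Smad4, Smad5, Bmp7, Smad7, Smad1, Bmp4, Smad6, Bmp2 and Smad9. In NCs it was Smad4, Bmp7, Smad5, Smad1, Smad6, Bmp4, Smad7, Bmp2 and Smad9, so that Smad7 went from the fourth place to the seventh and Smad6 from the seventh to the fifth. The spread between samples that would tell close neighbours apart, such as Bmp7, Smad7 and Smad1 in ESCs, is not known.

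**Figure D1:**
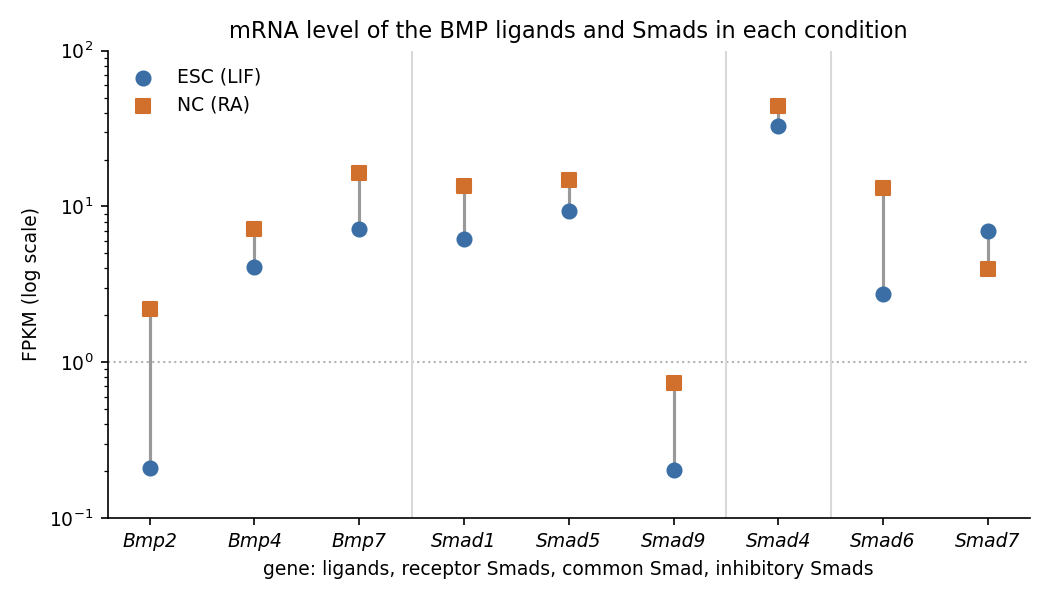
FPKM of each gene (log axis) in ESCs kept with LIF (circles) and in NCs treated with RA (squares), 1 value per condition, joined by a line; vertical lines divide ligands, receptor Smads, the common Smad and inhibitory Smads, and the dotted line marks 1 FPKM. The square lies above the circle for every gene but Smad7 (7.003 FPKM in ESCs, 3.97 in NCs), and Bmp2 and Smad6 have the longest lines among the genes with a mean of at least 1 FPKM.

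Among the ligands, Bmp7 had the highest level in both conditions, and Bmp2 had the largest relative difference of the 9 genes. Bmp2 (chromosome 2, 133552159 to 133562885, mm10, plus strand), which encodes an osteogenic and cardiogenic BMP, stood at 0.209 FPKM in ESCs against 2.20 FPKM in NCs, a 10.5-fold higher value (log2 ratio 3.39, counting interval 2.97 to 3.83). It went from a level that 0.978% of the 12782 genes lay under to one that 12.5% lay under, and 241 genes had a larger log2 ratio. With 1 FPKM added to both values the log2 ratio was 1.40, since the ESC value is close to 0.

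Bmp4 (chromosome 14, 46383520 to 46390669, minus strand), the BMP best known for its part in ESC self-renewal and in mesoderm formation, stood at 4.06 FPKM in ESCs against 7.16 FPKM in NCs. This 1.76-fold higher value is within the limit, and 13.9% of the genes had a larger log2 ratio than its 0.82. With totals made equal, its log2 ratio of 1.11 is past the limit. Exons of Bmp4 overlap those of the gene model Gm15217 on the other strand, and without a statement that strand was kept, reads of both cannot be told apart. In its longest coding transcript, 2.43% of the 50-base words also occur in transcripts of other genes.

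Bmp7 (chromosome 2, 172868012 to 172940321, minus strand), a ligand with parts in kidney, eye and neural development, stood at 7.14 FPKM in ESCs against 16.5 FPKM in NCs. It was 2.31-fold higher (log2 ratio 1.21, counting interval 1.13 to 1.29), and 8.81% of the genes had a larger log2 ratio. In absolute terms its difference of 9.33 FPKM was the largest among the ligands, against 1.99 FPKM for Bmp2 and 3.09 FPKM for Bmp4.

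Summed over the ligands, the level was 11.4 FPKM in ESCs against 25.8 FPKM in NCs, 2.26-fold higher. Bmp7 made up 62.6% of that sum in ESCs and 63.8% in NCs. The share of Bmp4 was 35.6% in ESCs and 27.7% in NCs, and that of Bmp2 was 1.83% and 8.51%. Bmp4 thus exceeded Bmp2 19.4-fold in ESCs and 3.26-fold in NCs. When the other BMP and GDF ligand genes are added to the total, Bmp2, Bmp4 and Bmp7 together made up 20.4% of it in ESCs and 53.2% in NCs, and Bmp7 alone 12.7% and 34.0%.

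**Figure D2:**
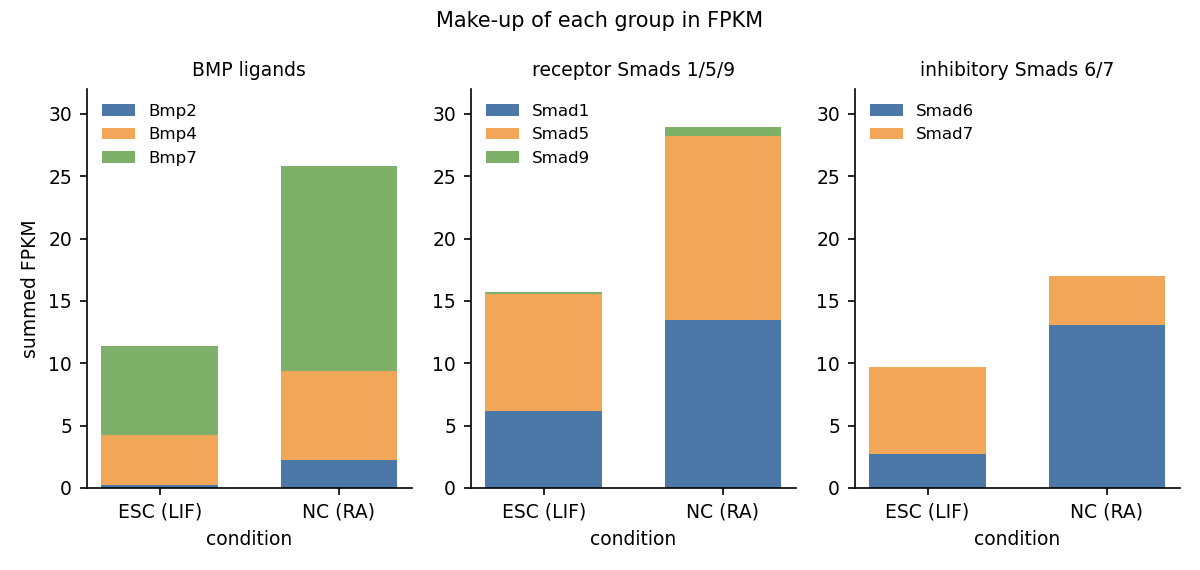
Stacked bars of the FPKM of each gene in ESCs and NCs, on a linear axis from 0, for the ligands, the receptor Smads and the inhibitory Smads. The ligand bar goes from 11.4 to 25.8 FPKM with Bmp7 as the largest part in both, while the larger part of the inhibitory bar is Smad7 in ESCs and Smad6 in NCs.

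Smad4 (chromosome 18, 73639009 to 73703780, minus strand), the common partner of the BMP and the TGF-β branch, had the highest level of the 9 genes in both conditions, 32.7 FPKM in ESCs against 44.0 FPKM in NCs. The 1.35-fold higher value was the smallest relative difference of the 9 (log2 ratio 0.43), and 24.4% of the genes had a larger log2 ratio. Its ESC level was above that of 76.4% of the 12782 genes. Smad4 exceeded the summed receptor Smads of the BMP branch 2.08-fold in ESCs and 1.52-fold in NCs.

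The receptor Smads all had the higher level in NCs. Smad1 (chromosome 8, 79338395 to 79399518, minus strand) stood at 6.20 FPKM in ESCs against 13.4 FPKM in NCs, a 2.17-fold higher value (log2 ratio 1.12, counting interval 1.02 to 1.21). It stayed past the limit under each scaling and pseudocount tried, with the lowest log2 ratio, 1.00, at 1 FPKM added. Smad5 (chromosome 13, 56703010 to 56742377, plus strand) stood at 9.34 FPKM in ESCs against 14.8 FPKM in NCs. It was 1.58-fold higher, within the limit, at a log2 ratio of 0.66. Smad9 (chromosome 3, 54755582 to 54801257, plus strand) had the lowest level of the 9 genes in both conditions, 0.202 FPKM in ESCs against 0.734 FPKM in NCs. Its 3.63-fold higher value (log2 ratio 1.86, counting interval 1.48 to 2.23) came with a mean of 0.468 FPKM, under the filter.

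The summed receptor Smads stood at 15.7 FPKM in ESCs against 29.0 FPKM in NCs, 1.84-fold higher. Smad5 made up 59.3% of the sum in ESCs and 51.0% in NCs, Smad1 39.4% and 46.4%, and Smad9 1.29% and 2.53%. The ratio of Smad5 to Smad1 was accordingly 1.51 in ESCs and 1.10 in NCs. The receptor Smads of the TGF-β and Nodal branch, Smad2 and Smad3, summed to 17.7 FPKM in ESCs against 30.7 FPKM in NCs. Set against the BMP branch this was 1.12-fold in ESCs and 1.06-fold in NCs, so that the sums of both branches had nearly the same relative level in each condition. None of the 50-base words in the longest coding transcripts of Smad1, Smad4, Smad5, Smad6 and Smad7 occurs in another gene's transcripts, and in Smad9 this share was 0.169%. Exact words of this length in these transcripts thus tell the paralogs apart. Exons of Smad5 overlap those of the gene model Gm27301 on the same strand.

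RefSeq promoter windows of GRCm38.p6, which run from 250 bases before to 50 after a transcription start, were found for 5 of the genes (Bmp4, Smad1, Smad5, Smad6 and Smad9) and number 7, since Smad5 has several starts. The GC-rich element that SMAD1 and SMAD5 bind in BMP target genes, GGCGCC, is its own reverse complement and was present in 11.9% of all 32851 windows. It was present in the window of Smad9 and in a pair of overlapping windows of Smad5, where both see the same site, and in none of Bmp4, Smad1 and Smad6. The GC content of the 7 windows was 63.0% to 73.7%, against a median of 52.7% over all windows. The sites are shown here with 12 bases on each side and the element in capitals, from chr3:54755519-54755548 (plus strand, 51 to 46 bases before the start of Smad9) and chr13:56703021-56703050 (plus strand, 19 to 14 bases before one start of Smad5 and 24 to 29 bases after the start upstream of it).

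Smad9: gcacggccgcctGGCGCCcttccagcgcgg
Smad5: ccccggcgagcgGGCGCCgagcgcttgtcc

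A match of letters does not show that a factor is bound there. Smad1, with no such element in its window, was 2.17-fold higher in NCs, beside 1.58-fold for Smad5 and 3.63-fold for Smad9. Whether the element bears on these differences was not tested. GGCGCC with a Smad box (GTCT) within 5 bases, the arrangement of BMP response elements, was found in 0.837% of all windows. Of the words bound by retinoic acid receptors, only AGGTCA and GGTTCA were searched, as direct repeats. These repeats were found in 0.177% of all windows (spaced by 2 bases) and 0.0183% (spaced by 5 bases). None of the 7 windows held these repeats or that arrangement. Since other words bound by these receptors were left out, whether the 7 windows lack a retinoic acid receptor site was not tested. All motifs were searched on both strands.

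Smad6 and Smad7, the inhibitory Smads, differed in opposite directions. Smad6 (chromosome 9, 63953076 to 64022059, minus strand), whose product acts mainly on the BMP branch, stood at 2.73 FPKM in ESCs against 13.1 FPKM in NCs. It was 4.79-fold higher (log2 ratio 2.26, counting interval 2.13 to 2.40), the second largest relative difference of the 9 genes and, at 10.3 FPKM, the second largest absolute one after the 11.3 FPKM of Smad4. A larger log2 ratio was found for 3.45% of the genes, and the log2 ratio was 1.92 to 2.55 over the scalings and pseudocounts tried. The level of Smad6 went from one that 18.1% of the genes lay under to one that 53.4% lay under.

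Among the promoter windows of the 5 genes, that of Smad6 alone held GTCTAGAC, a Smad box joined to its reverse complement, which is the Smad binding element of the luciferase reporter used in the study. It was present in 0.213% of all windows, that is in 70 of 32851, while the single box GTCT, which it contains on both strands, was present in 88.0%. The stretch is printed because this element lies across the annotated start of Smad6. Whether the element has a part in the difference of Smad6 was not tested. It covers chr9:64022040-64022309 of GRCm38.p6 on the minus strand, 250 bases before and 20 after the start, with the element (4 bases on each side of the start) in capitals.

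Smad6: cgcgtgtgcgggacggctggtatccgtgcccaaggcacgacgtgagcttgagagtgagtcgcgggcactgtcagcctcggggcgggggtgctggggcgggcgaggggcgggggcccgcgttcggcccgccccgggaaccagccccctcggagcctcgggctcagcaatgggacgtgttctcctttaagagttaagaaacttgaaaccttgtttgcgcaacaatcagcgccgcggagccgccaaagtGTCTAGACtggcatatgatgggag

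The window ends shortly after the start, and no binding at it was measured in these samples.

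The other inhibitory Smad gene went the opposite way, as the sole gene of the 9 with the lower value in NCs. Smad7, whose product restrains both the BMP and the TGF-β branch, stood at 7.003 FPKM in ESCs against 3.97 FPKM in NCs. With RA the value was 1.76-fold lower (log2 ratio -0.82), within the 2-fold limit and past a limit of 1.5-fold, and 12.7% of the genes had a lower log2 ratio. Its direction was the same under every scaling and pseudocount tried, with log2 ratios of -0.82 to -0.53. The counting interval, taken at a transcript length of 769 bases, was -1.10 to -0.54.

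Because of these opposite differences, Smad7 exceeded Smad6 2.57-fold in ESCs, whereas Smad6 exceeded Smad7 3.29-fold in NCs. Smad6 made up 28.0% of the summed inhibitory Smads in ESCs and 76.7% in NCs, and Smad7 72.0% and 23.3%. The sum itself was 9.73 FPKM in ESCs against 17.0 FPKM in NCs, 1.75-fold higher, close to the 1.84-fold of the receptor Smads. The ratio of inhibitory to receptor Smads was therefore 0.618 in ESCs and 0.588 in NCs, a log2 difference of -0.07, which turned to 0.01 when the median of the pairwise log2 ratios was taken. These ratios within a condition do not depend on the scaling of the conditions.

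**Figure D3:**
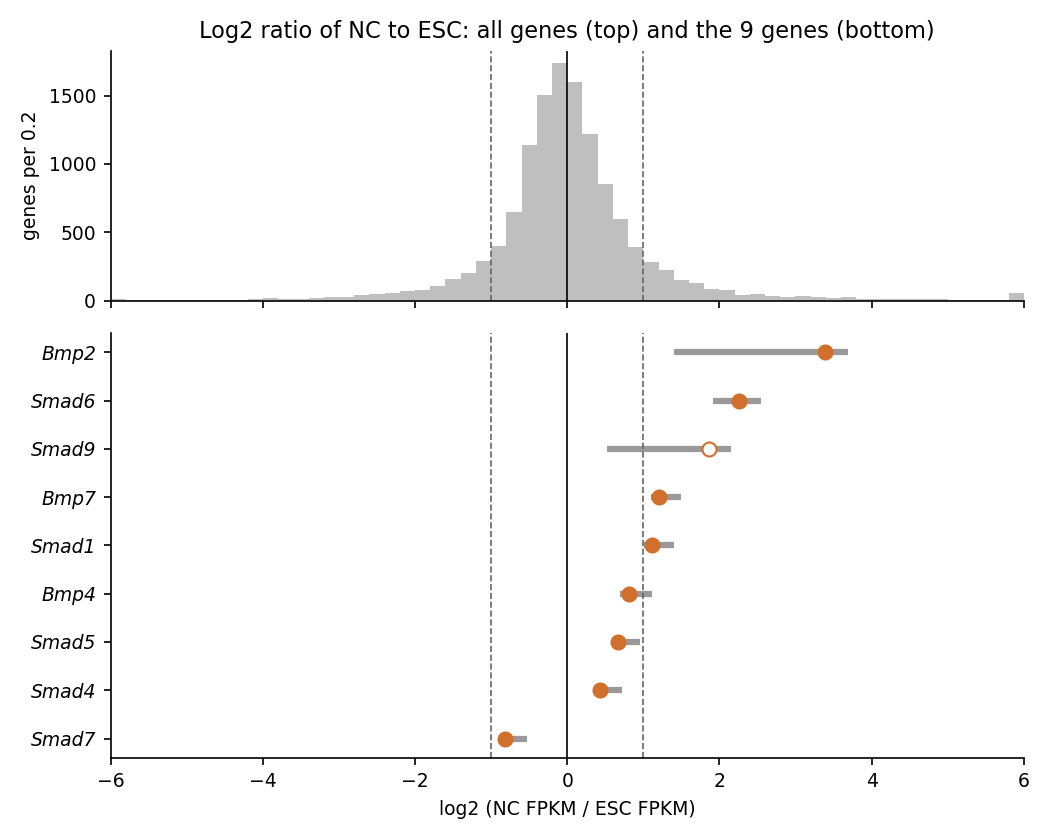
Histogram of the log2 ratio of NC to ESC FPKM over the 12782 genes with a mean of at least 1 FPKM (top, values beyond 6 placed in the end bins), and the 9 genes on the same axis (bottom, points), with bars for the range over the scalings and pseudocounts tried, solid lines at 0 and dashed lines at 2-fold. The open point is Smad9, under the filter. Bmp2 and Smad6 lie at 3.39 and 2.26, Smad7 lies at -0.82, and no bar crosses 0.

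The other genes of the pathway came from 8 lists with 101 genes, all in the table, of which 73 had a mean of at least 1 FPKM. Past the limit, 25 of these (34.2%) were higher in NCs and 5 (6.85%) lower, beside 11.1% and 9.94% of all genes. With at least 1 FPKM required in both conditions, 18 were higher and 4 lower, out of fewer than 73 genes. Over all genes with those levels, 7.45% were higher and 7.89% lower. The lists differ in this, with medians of the log2 ratio from -0.38 for the other ligands to 3.17 for the target genes. With totals made equal, 2 genes (Gdf3 and Gdf15) were still past the limit and lower in NCs, and Id4, Foxh1 and Skil were within it.

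**Figure D4:**
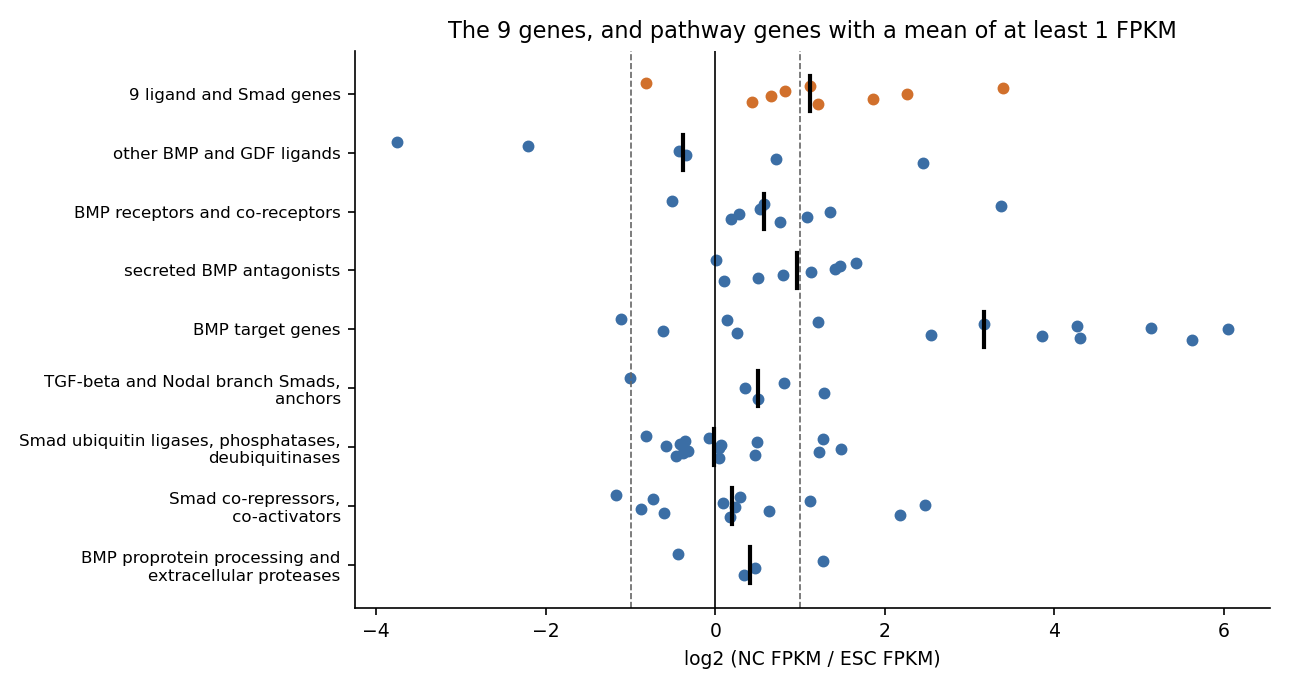
Log2 ratio of NC to ESC FPKM of the 9 genes (top row, all 9) and of the genes with a mean of at least 1 FPKM in each of the 8 pathway lists (1 point per gene), with a vertical bar at the median, a solid line at 0 and dashed lines at 2-fold. The target genes have the highest median (3.17) and the other ligands the lowest (-0.38), against 1.12 for the 9 genes.

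Of 14 listed BMP target genes, 13 had a mean of at least 1 FPKM. Past the limit, 9 of them were higher in NCs (69.2%, beside 11.1% of all genes). Of these 9, Msx1, Msx2, Gata3, Tbx2 and Atoh8 were under 1 FPKM in ESCs and reached the mean only through their NC values, so they could not have been counted without a difference. With at least 1 FPKM required in both conditions, 4 were counted as higher (Id1, Id2, Id3 and Gata2) and 1 as lower (Id4). The others with those levels, Bambi, Tbx3 and Hey1, were within the limit. Over all genes with those levels, 7.45% were higher and 7.89% lower. Id3, an inhibitor of basic helix-loop-helix factors and an immediate target of BMP Smads, stood at 9.56 FPKM in ESCs against 337 FPKM in NCs, 35.2-fold higher. Id2 was 14.4-fold higher (11.5 and 167 FPKM). Atoh8, a basic helix-loop-helix factor gene, was 66.2-fold higher (0.0598 and 3.96 FPKM). The list was not uniform: Id4 differed 2.16-fold in the other direction (2.81 and 1.30 FPKM), Bambi, which encodes a pseudoreceptor that blocks BMP signals, was 1.19-fold higher, and Tbx3 1.53-fold lower. Msx1, a homeobox gene of the dorsal neural tube and neural crest, was 49.3-fold higher (0.117 and 5.75 FPKM). Apart from Id2, Id3, Id4 and Atoh8, the genes of this list were named after their values were seen. Many of these genes also respond to other signals, RA among them, and which signal acted on them was not tested.

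Of 17 other ligand genes, 6 had a mean of at least 1 FPKM. Gdf3, a TGF-β superfamily ligand of pluripotent cells, was 4.63-fold lower in NCs (27.4 and 5.93 FPKM), and Gdf15 13.5-fold lower (4.91 and 0.363 FPKM). Gdf11, a regulator of axial patterning, was 5.44-fold higher (0.802 and 4.36 FPKM). Gdf15 reached the mean only through its ESC value and Gdf11 only through its NC value, so neither could have been counted without a difference. With at least 1 FPKM required in both conditions, 0 of the list were past the limit and higher and 1 (Gdf3) lower. The others with those levels, Bmp6, Bmp8b and Gdf1, were within the limit. Gdf1, a partner of Nodal, stood at 7.74 FPKM in ESCs against 5.77 FPKM in NCs. The 17 genes summed to 44.7 FPKM in ESCs against 22.7 FPKM in NCs, 1.97-fold lower, opposite to the sum of Bmp2, Bmp4 and Bmp7.

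On the receptor side, 3 of 9 genes with a mean of at least 1 FPKM were past the limit and higher in NCs. This is 33.3%, beside 11.1% of all genes. None were lower, and the median log2 ratio was 0.58. Bmpr1a, the type I receptor for BMP2 and BMP4, stood at 17.4 FPKM in ESCs against 36.8 FPKM in NCs. Rgma, a BMP co-receptor that also guides axons, was 10.4-fold higher in NCs (1.27 and 13.1 FPKM). Acvr2b, a type II receptor, was at 16.5 and 18.8 FPKM, and Eng, an endothelial co-receptor, was 1.43-fold lower.

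Secreted antagonists were past the limit and higher in NCs for 4 of 8 genes (50%, beside 11.1% of all genes). None were lower, and the median log2 ratio was 0.96, beside -0.04 over all genes. The count of 4 depends on the setting. With 1 FPKM added to both values 2 were higher (beside 7.91% of all genes), and at a 4-fold limit 0 (beside 4.20%). With at least 1 FPKM required in both conditions it stayed at 4 (beside 7.45% of all genes with those levels). Nog, which encodes the BMP trap noggin, was 3.17-fold higher (1.04 and 3.30 FPKM). Fstl1 (29.9 and 51.9 FPKM) and Twsg1 (22.6 and 31.9 FPKM), the most abundant of the list, were within the limit, and Dand5 stood at 3.01 FPKM in ESCs against 3.04 FPKM in NCs.

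In the TGF-β and Nodal branch, Smad3 was 2.43-fold higher in NCs (6.99 and 17.0 FPKM) and Smad2 1.28-fold higher (10.7 and 13.7 FPKM), while Foxh1, the DNA-binding partner of SMAD2 in Nodal responses, was 2.02-fold lower (35.8 and 17.7 FPKM). Among 16 ubiquitin ligases, phosphatases and deubiquitinases that act on Smads, 3 were higher past the limit (18.8%, beside 11.1% of all genes). None were lower, and the median log2 ratio was -0.01. All 3 encode small C-terminal domain phosphatases, the family that removes phosphate from the Smad linker: Ctdspl was 2.80-fold higher, Ctdsp2 2.41-fold and Ctdsp1 2.33-fold. Ctdsp1 and Ctdsp2 were named after their values were seen. The ubiquitin ligase genes Nedd4 (369 and 380.0 FPKM) and Stub1 (1947 and 2735 FPKM) were the most abundant, and Usp9x, whose product removes ubiquitin from SMAD4, was 1.77-fold lower.

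Of 12 Smad co-repressor and co-activator genes with a mean of at least 1 FPKM, 3 were past the limit and higher in NCs and 1 lower. Over all genes these shares were 11.1% and 9.94%. With at least 1 FPKM required in both conditions, which of these 12 left out only Zeb2, 2 were higher and 1 lower. Zeb2, which encodes a Smad-interacting transcriptional repressor, was 5.56-fold higher (0.621 and 3.45 FPKM). It reached the mean only through its NC value, so it could not have been counted without a difference. The related Smad co-repressor genes Ski and Skil went opposite ways: Skil was 2.26-fold lower (36.5 and 16.1 FPKM), and Ski, named after its value was seen, 2.17-fold higher (25.6 and 55.6 FPKM). Tgif1 (117 and 63.8 FPKM) and Hdac1 (139 and 170.4 FPKM) were the most abundant and within the limit. Of 4 genes for the processing of BMP precursors and their antagonists, Bmp1, a protease that cleaves chordin, was 2.41-fold higher in NCs (2.26 and 5.46 FPKM), Furin had 10.5 and 14.5 FPKM, and Pcsk6 was 1.36-fold lower.

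The genes with the most similar pair of levels were ranked by the distance on log2(FPKM + 1) over the 2 conditions, for the members with the largest differences in each direction. For Bmp2 they were Gm8579, Col4a6 and Olfr376, at distances of 0.0328 to 0.0461. Col4a6, a basement membrane collagen gene, stood at 0.214 FPKM in ESCs against 2.29 FPKM in NCs. For Smad7 they were Ank3, AI414108 and Dopey2, at 0.0456 to 0.0581, and Ank3, which encodes ankyrin-G, had 6.80 and 3.88 FPKM. With 1 value in each of 2 conditions this likeness says only that the levels lie close together.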

How the data were processed

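Total RNA of 6 samples (3 ESC, 3 NC) had been made into TruSeq libraries and sequenced on a HiSeq instrument. The authors mapped reads to mm10 (Bowtie2 2.1.0, TopHat2 2.0.8) and obtained levels with Cufflinks 2.0.2, Cuffmerge and Cuffdiff (version and normalization option not given in the sources used here), so the deposited FPKM are 1 value per gene and condition. The heading of the NC column reads FPK and was taken as FPKM. The deposited table also holds the authors' log2 fold change, score (test statistic), p-value and q-value, none of which was used. No column of per-sample values was given.

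The ratio of NC to ESC FPKM was computed without pseudocount, keeping the row with the highest mean for each name. Genes and lists were chosen with earlier results of these data known. Named genes were the 9 members, the 2 most abundant genes and the extremes of each list, and the 3 nearest genes of Bmp2 and Smad7; other named genes were picked after their values were seen. Positions, transcripts and overlaps were from GENCODE M21 (GRCm38, that is mm10), and promoters from RefSeq (GRCm38.p6). Alternatives were pseudocounts, scalings, fold limits and filters. The counting was tested on simulated data. Python 3.11.15, numpy 2.4.6, pandas 2.3.3, scipy 1.17.1 and matplotlib 3.10.9 were used.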

Additional observations from a re-analysis of the deposited data

How the results depend on the processing

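No paired analysis was possible because the table holds 1 pooled value per condition, and for the same reason no replicate could be left out. The log2 ratio of each of the 9 genes kept its sign under every scaling and pseudocount. Their median was 0.69 with a pseudocount of 1 and 1.41 with equal totals. The count of the 9 genes higher in NCs was 2 at a 4-fold limit (Bmp2 and Smad6), and 1 gene (Smad7) was lower at 1.5-fold. It was 5 with equal totals (Bmp4 added), 5 with no filter or a mean of at least 0.1 FPKM (Smad9 added) and 3 with at least 1 FPKM in both conditions, where Bmp2 was lost. Over all genes, 2471 were higher and 2399 lower at 1.5-fold, 537 and 426 at 4-fold, 3853 and 2877 with no filter, and 2455 and 1943 with a mean of at least 0.1 FPKM. With at least 1 FPKM in both, 873 were higher and 924 lower, which is 7.45% and 7.89% of 11715 genes. Among the 73 listed pathway genes with a mean of at least 1 FPKM, 3 were lower with a pseudocount of 1, 2 with equal totals and 10 at 1.5-fold. At 4-fold 12 of the 73 were higher and 2 lower, and with no filter 42 and 8 of the 101 listed. The share of Bmp7 in the ligand total was 12.7% in ESCs and 34.0% in NCs with the other ligands added, and the log2 difference of inhibitory to receptor Smads, -0.07, became 0.010 with pairwise medians. Neither the spread between samples nor depth per sample is known.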

Other observations

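Of the 101 pathway genes, 28 did not reach a mean of 1 FPKM and were left out of the counts. Several of them had much higher values in NCs at a low level, and the genes named here were chosen after their values were seen. The BMP antagonist gene Chrdl1 stood at 0.156 FPKM in ESCs against 1.12 FPKM in NCs, and Sost had 0.0472 and 0.585 FPKM. The ligand genes Gdf7, which acts in the roof plate of the neural tube, and Gdf6 had 0.230 and 1.10 FPKM and 0.117 and 0.651 FPKM. The type I receptor gene Bmpr1b stood at 0.369 FPKM in ESCs against 0.949 FPKM in NCs. The antagonist gene Cer1 stood at 0.169 FPKM in ESCs against 0.0442 FPKM in NCs, the lower value in NCs. Bmp10 was listed at 0 in both conditions.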
